A study of Rattus norvegicus with 10 samples.

Results

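The transcripts described here are those of 9 tetraspanins found in glial membranes, synapses and exosomes: Tspan2, Cd9, Cd81, Cd82, Cd63, Cd151, Tspan7, Tspan5 and Tspan3. They were taken by gene symbol from the deposited count table, with all rows of a symbol added together, and are 9 of the 13670 symbols in that table. All 9 passed the filter on low counts. The left hippocampus was sampled in female rats of the TgF344-AD line, Fischer animals that carry mutant human amyloid precursor protein and presenilin transgenes behind a prion promoter and model Alzheimer's disease. The 5 rats of the BT-11 group ate chow containing BT-11 (a small molecule taken by mouth that is known to bind LANCL2) for 6 months from the age of 5 months. The 5 rats of the untreated group ate ordinary chow. Every rat was transgenic, was 11 months old, and was perfused with cold saline under ketamine and xylazine before dissection. Each library came from 1 animal. The samples are labelled female, although male is written once in the design text. Wild-type rats were not analysed here, so no value below separates an effect of the transgenes.

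Tetraspanins are small proteins that cross the membrane repeatedly and gather integrins, immunoglobulin-like receptors, proteases and one another into patches of the membrane. Cd9, Cd81 and Cd63 are standard markers of exosomes, the vesicles that form inside multivesicular endosomes and are released by cells. In the brain, Tspan2 and Cd9 are known from oligodendrocytes and myelin, Cd81 from astrocytes and other glia, Cd151 from vessels and other cells that hold laminin through integrins, and Tspan7 from synapses of neurons.

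Levels are compared between genes as reads scaled to library size (CPM) and divided by the length in kilobases of the deposited row (CPM per kb), over all 10 libraries. Tspan7, which in cultured rat neurons binds Pick1 and shapes the trafficking of AMPA receptors, had the highest level, with a median of 659 CPM per kb (lowest 616, highest 685). Cd81, a partner of the immunoglobulin-like proteins Igsf8 and Ptgfrn, followed at 346 (274 to 416), and Tspan3, which forms a complex with the myelin protein claudin-11 in oligodendrocytes, at 173 (167 to 190). Cd63, the tetraspanin of late endosomes and lysosomes, had a median of 73.2 CPM per kb (57.4 to 93.7), close to the 67.6 (62.7 to 78.3) of Tspan5, one of the tetraspanins that bind the protease Adam10. Cd9 stood at 53.4 CPM per kb (40.2 to 70.4). Below it were Cd151, a partner of laminin-binding integrins, at 31.2 (25.9 to 39.1), Tspan2 at 30.7 (19.6 to 43.3) and Cd82, known as a suppressor of metastasis, at 28.0 (21.6 to 32.9).

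In that order each gene was above the next in 10 of 10 libraries, except for 3 neighbouring pairs. Cd63 exceeded Tspan5 in 8 of 10, Cd151 exceeded Tspan2 in 7 of 10, and Tspan2 exceeded Cd82 in 7 of 10, so the order within these pairs lies inside the spread between animals. The level of Cd151 carries an added uncertainty: the table lists it at 2 loci of rn6, chr1:214009753-214013761 and chr1:214446659-214450667, both on the plus strand, whose rows have the same length of 1642 bases and the same summed count of 4196. Both were added here. With 1 row alone the level of Cd151 would be lower, and its median would fall below those of Tspan2 and Cd82. Whether the 2 rows hold the same reads was not tested.

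**Figure D1:**
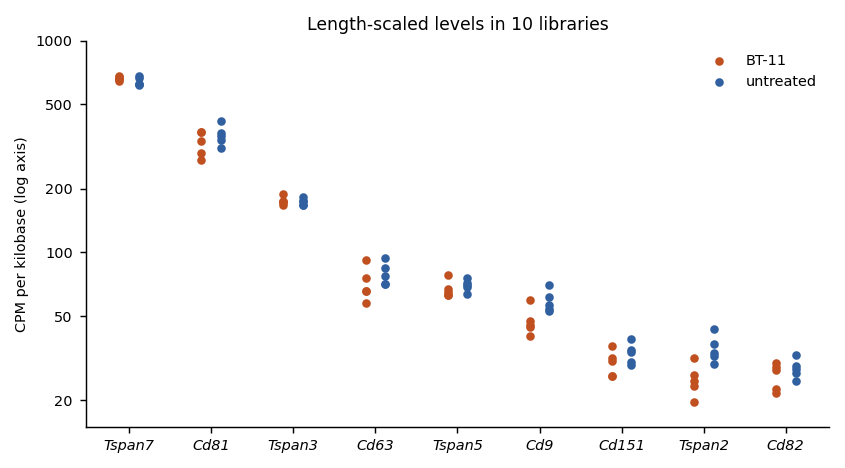
Length-scaled level (CPM per kilobase, log axis) of each tetraspanin; each point is 1 library, with BT-11 libraries left of untreated libraries (5 each). Tspan7 is highest, at 616 to 685 CPM per kb, and Cd151, Tspan2 and Cd82 overlap at the low end.

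Library totals lay between 13721673 and 19700443 counts. BT-11 library 3 and untreated library 4 were rich in transcripts of choroid plexus, the tissue that secretes transthyretin: Ttr stood at 1196 CPM in the first and 1055 CPM in the second, and 1.63 to 80.8 CPM elsewhere. BT-11 library 3 also had less ribosomal RNA, 5.61% of its counts against 9.12% to 11.0% in the others. Of 15 listed oligodendrocyte markers 14 were in the table (Gjc3 was not), none of them at 0, and their summed level was 6755 to 9935 CPM with BT-11, against 9201 to 17078 CPM in the untreated group. Defining markers of the hippocampal cell types were present throughout. The mean log2(CPM + 1) over 10 neuronal markers was 9.05 to 9.26 in BT-11 libraries and 8.82 to 9.20 in untreated libraries. The astrocyte mean over 9 markers was 8.72 to 9.05 in BT-11 libraries and 8.78 to 9.03 in untreated libraries.

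The comparison of the groups asked whether the treatment went with other levels of these transcripts in transgenic females. Tspan2 and Cd9 averaged lower with BT-11, Cd81, Cd82, Cd63 and Cd151 averaged slightly lower with intervals that span 0, and Tspan7, Tspan5 and Tspan3 differed least. No tetraspanin passed edgeR's quasi-likelihood test after Benjamini-Hochberg adjustment over the 12000 genes tested, where 0 genes (0%) passed. The adjusted p-values of the 9 were 0.8 to 0.965. At an unadjusted p under 0.05 there were 2 of the 9, Tspan2 and Cd9, both lower with BT-11, beside 411 genes lower (3.42%), 304 higher (2.53%) and 715 in either direction (5.96%) of all tested. The log2 fold change was below 0 for 7 of the 9, beside 50% of all genes. The members' median log2 fold change was -0.12, and that of all genes was -0.000157. No tetraspanin had every BT-11 library below every untreated one, which 65 genes (0.542%) did, or every one above, which 36 genes (0.3%) did.

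Tspan2 (rn6 chr2:205160410-205202774, plus strand), a tetraspanin of oligodendrocytes that form myelin, had 89.4, 75.2, 121, 101 and 95.1 CPM in BT-11 libraries 1 to 5, against 114, 128, 166, 124 and 142 CPM in untreated libraries 1 to 5. The groups overlapped only through BT-11 library 3, which stood above untreated library 1, and the other 4 BT-11 libraries lay below every untreated library. The means were 96.3 ± 16.8 CPM with BT-11 and 134.6 ± 20.2 CPM untreated (SD, n = 5 each), a log2 fold change of -0.48 ± 0.125 (SE; 95% interval -0.75 to -0.21). Its unadjusted p was 0.00202 and its adjusted p 0.8 (edgeR quasi-likelihood test). The counts behind it were 1154 to 1845 reads with BT-11 and 1901 to 2767 untreated.

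Cd9 (rn6 chr4:157977163-158010092, minus strand), a tetraspanin of myelin and of exosomes, had 50.7, 46.0, 67.9, 54.4 and 51.7 CPM in BT-11 libraries, against 64.6, 60.6, 80.6, 61.6 and 70.2 CPM in untreated libraries. As for Tspan2, BT-11 library 3 was the one BT-11 library inside the untreated range. Cd9 averaged 54.1 ± 8.27 CPM with BT-11 and 67.5 ± 8.21 CPM untreated (SD, n = 5 each). The log2 fold change was -0.32 ± 0.107 (SE; 95% interval -0.55 to -0.09), with an unadjusted p of 0.0107 and an adjusted p of 0.8 in edgeR's test. In these bulk samples, fewer cells of a type and less RNA per cell cannot be told apart. Without these choroid-rich libraries (BT-11 3 and untreated 4), the log2 fold change was -0.61 for Tspan2 (edgeR adjusted p = 0.216) and -0.44 for Cd9.

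The bases upstream of the transcription start are shown for Tspan2 and Cd9, which varied together across animals as described below, and for Tspan7, which ran against them. Each run covers the 250 bases before the start, 5′ to 3′ on the gene's strand, from RefSeq on assembly GRCr8. Capitals mark the GC box GGGCGG or its reverse complement CCGCCC, the sequence bound by Sp family factors.
Tspan2 promoter (chr2:192866030-192866279, plus strand): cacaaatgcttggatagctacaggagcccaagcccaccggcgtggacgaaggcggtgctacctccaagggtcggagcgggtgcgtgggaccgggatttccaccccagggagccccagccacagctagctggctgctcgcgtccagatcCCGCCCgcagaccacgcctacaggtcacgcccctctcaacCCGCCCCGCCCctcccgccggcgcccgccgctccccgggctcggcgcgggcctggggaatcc
Cd9 promoter (chr4:159975359-159975608, minus strand): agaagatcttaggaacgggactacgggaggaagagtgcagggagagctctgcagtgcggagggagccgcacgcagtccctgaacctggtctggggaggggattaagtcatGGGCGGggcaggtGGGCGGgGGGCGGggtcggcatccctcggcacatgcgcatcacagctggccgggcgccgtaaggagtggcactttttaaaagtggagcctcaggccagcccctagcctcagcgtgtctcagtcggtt
Tspan7 promoter (chrX:14978628-14978877, minus strand): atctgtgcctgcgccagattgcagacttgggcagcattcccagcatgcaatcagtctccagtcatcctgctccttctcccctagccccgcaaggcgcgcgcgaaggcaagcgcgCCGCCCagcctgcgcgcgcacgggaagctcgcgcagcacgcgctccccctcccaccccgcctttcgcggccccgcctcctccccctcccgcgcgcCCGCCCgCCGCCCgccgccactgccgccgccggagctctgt

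Each of these windows holds 3 GC boxes, which in Tspan2 begin 102, 62 and 57 bases before the start, in Cd9 140, 127 and 120, and in Tspan7 136, 41 and 34. The RefSeq promoter table matched 8 of the 9 tetraspanins, all but Cd82. A GC box on either strand was found in 7 of those 8 windows, the exception being Tspan5, and in 30.5% of all 33469 promoter windows of that length. The 8 windows were also rich in G and C, from 62.0% in Cd151 to 77.2% in Tspan5, where the median of all windows was 51.2%. The TATA box TATAAA (12.9% of all windows) and both letter forms searched for the oligodendrocyte factor Myrf, CTGGCAC (3.78%) and CTGGTAC (1.78%), were found in 0 of the 8. Cd63 alone held the E-box CACGTG (5.59% of all windows), 190 bases before its start, and Tspan5 alone held the SOX core ACAAAG (16.3% of all windows), 208 bases before its start. All were searched on both strands. A match of letters is a description of the sequence only.

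**Figure D2:**
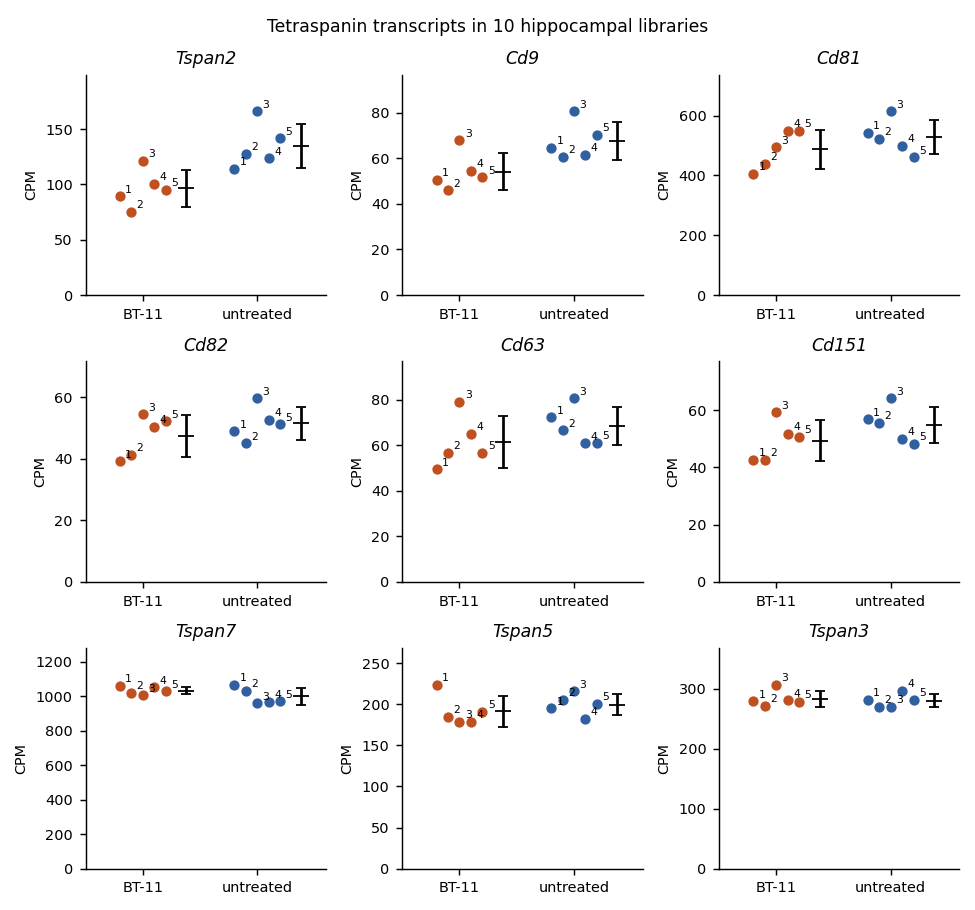
Level of each tetraspanin in CPM by library (numbered points), with BT-11 left of untreated, and the mean ± SD of each group of 5 as bars beside the points. Tspan2 and Cd9 have 4 of 5 BT-11 libraries below every untreated library, while the groups of the other 7 overlap more widely.

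Among the tetraspanins best known from exosomes, Cd81 (rn6 chr1:216237663-216253462, plus strand) had 405, 438, 494, 549.7 and 549.8 CPM in BT-11 libraries, against 543, 523, 614, 499 and 461 CPM in untreated libraries. BT-11 libraries 1 and 2 were the lowest of all 10, and BT-11 libraries 4 and 5 were exceeded by untreated library 3 alone. Its means were 487 ± 65.4 CPM with BT-11 and 528 ± 57.0 CPM untreated (SD, n = 5 each), with a log2 fold change of -0.12 ± 0.0996 (SE; 95% interval -0.33 to 0.10; edgeR adjusted p = 0.84). Cd63 (rn6 chr7:3332788-3335580, plus strand) had 49.4, 56.5, 79.0, 64.9 and 56.5 CPM in BT-11 libraries, against 72.3, 66.4, 80.6, 60.8 and 61.0 CPM in untreated libraries. BT-11 libraries 1, 2 and 5 lay below every untreated library, and BT-11 library 3 lay near the highest. The log2 fold change of Cd63 was -0.15 ± 0.119 (SE; 95% interval -0.41 to 0.10; edgeR adjusted p = 0.83).

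Cd82 (rn6 chr3:82324349-82368358, minus strand) had 39.1, 41.2, 54.4, 50.3 and 52.1 CPM in BT-11 libraries, against 48.9, 45.0, 59.7, 52.7 and 51.3 CPM in untreated libraries. BT-11 libraries 1 and 2 lay below the untreated range and the other 3 inside it. Its log2 fold change was -0.12 ± 0.103 (SE; 95% interval -0.34 to 0.10; edgeR adjusted p = 0.842). Cd151 had 42.6, 42.6, 59.2, 51.8 and 50.6 CPM in BT-11 libraries, against 56.8, 55.6, 64.2, 49.99 and 48.2 CPM in untreated libraries. Here too BT-11 libraries 1 and 2 lay below the untreated range. Its log2 fold change was -0.15 ± 0.103 (SE; 95% interval -0.38 to 0.07; edgeR adjusted p = 0.819). Without both choroid-rich libraries the log2 fold change was -0.30 for Cd63 and -0.26 for Cd151.

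Tspan7 (rn6 chrX:13261551-13279028, minus strand) had 1059, 1021, 1006, 1051 and 1028 CPM in BT-11 libraries, against 1065, 1033, 958, 968 and 971 CPM in untreated libraries. All 5 BT-11 libraries lay above the untreated mean and inside the untreated range. The log2 fold change was 0.05 ± 0.0510 (SE; 95% interval -0.06 to 0.16; edgeR adjusted p = 0.866). Tspan5 (rn6 chr2:244058186-244224060, plus strand) had 223, 185, 178.8, 178.9 and 191 CPM in BT-11 libraries, against 195, 205, 216, 182 and 200.1 CPM in untreated libraries. BT-11 library 1 was the highest of all 10 and BT-11 libraries 3 and 4 the lowest. Its log2 fold change was -0.06 ± 0.0743 (SE; 95% interval -0.22 to 0.10; edgeR adjusted p = 0.881).

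Tspan3 (rn6 chr8:60806848-60830449, minus strand) had 279, 272, 306, 281 and 278 CPM in BT-11 libraries, against 282, 269.6, 269.9, 297 and 282 CPM in untreated libraries. The groups coincided apart from BT-11 library 3, the highest of all 10. Its log2 fold change was 0.02 ± 0.0558 (SE; 95% interval -0.10 to 0.14; edgeR adjusted p = 0.965). The intervals of Tspan7 and Tspan3 were narrower than those of the other 7.

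**Figure D3:**
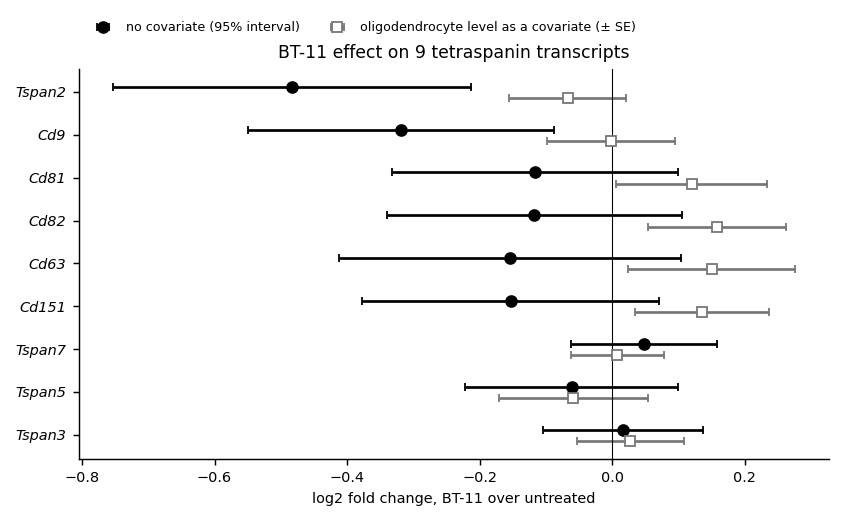
Log2 fold change of each tetraspanin, BT-11 over untreated: filled circles with 95% intervals have no covariate, and open squares with SE have the oligodendrocyte level as a covariate. The interval lies below 0 for Tspan2 (-0.75 to -0.21) and Cd9 (-0.55 to -0.09), and with the covariate both stand near 0.

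The animals of a group differed more in some tetraspanins than in others. The SD within groups on the log2 scale was 0.229 for Tspan2, 0.215 for Cd63, 0.187 for Cd9, 0.181 for both Cd82 and Cd151, and 0.176 for Cd81. It was 0.114 for Tspan5, 0.0613 for Tspan3 and 0.0523 for Tspan7. The median over all genes tested was 0.156, so the first 6 varied more from animal to animal than the median gene and Tspan5, Tspan3 and Tspan7 less.

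To show what this variation ran with, each gene was regressed, with group in the model, on the level of oligodendrocyte transcripts in each library, the mean log2(CPM + 1) of the 14 markers. No tetraspanin is among these markers. The marker level was 7.08 to 7.62 in BT-11 libraries and 7.61 to 8.17 in untreated libraries, with means of 7.37 and 7.81. All 14 markers averaged lower with BT-11, 13 of them at an unadjusted p under 0.05 and 0 after adjustment (edgeR quasi-likelihood test), with a median log2 fold change of -0.46. Of all genes tested 50% averaged lower, and 3.42% were lower at an unadjusted p under 0.05 in the same test.

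Tspan2 followed the oligodendrocyte level almost unit for unit: its slope was 0.95 ± 0.147 (SE, log2 of Tspan2 per log2 unit of the level), with an edgeR adjusted p of 0.0139 over all genes. It was 1 of 9 tetraspanins to pass, beside 93 genes with a positive slope (0.775%) and 2 with a negative one (0.0167%) of the 12000. Those 93 include 11 of the markers whose mean is the level itself. The balance of positive and negative calls was not stable: DESeq2 called 303 positive and 338 negative slopes, and edgeR without untreated library 1 called 673 positive and 838 negative. The call on Tspan2 rested on single libraries. The adjusted p was 0.191 without untreated library 3, which had the highest level, 0.098 without BT-11 library 2, which had the lowest, 0.0708 without BT-11 library 3, and 0.193 without both choroid-rich libraries. The slope itself stayed between 0.85 and 1.01 as each library was left out.

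The other tetraspanins did not pass in edgeR's test against the oligodendrocyte level, where 6 of the 9 and 22.3% of all genes had an unadjusted p under 0.05. The slopes were 0.73 ± 0.160 for Cd9 (edgeR adjusted p = 0.0674), 0.71 ± 0.212 for Cd63 (0.118), 0.67 ± 0.170 for Cd151 (0.0994), 0.64 ± 0.176 for Cd82 (0.112) and 0.54 ± 0.191 for Cd81 (0.143). Without untreated library 1 the edgeR adjusted p was 0.0207 for Cd9, 0.0433 for Cd82, 0.0254 for Cd63 and 0.0169 for Cd151. Calls were common in that fit, where 673 positive and 838 negative slopes of 12042 genes passed. Without untreated library 5 the adjusted p was 0.0422 for Cd151, and 171 positive and 65 negative slopes of 12046 genes passed. For Tspan7, Tspan5 and Tspan3 the slopes were -0.09 ± 0.119, 0.01 ± 0.183 and 0.03 ± 0.136. The differences between the slopes of different tetraspanins were not tested.

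**Figure D4:**
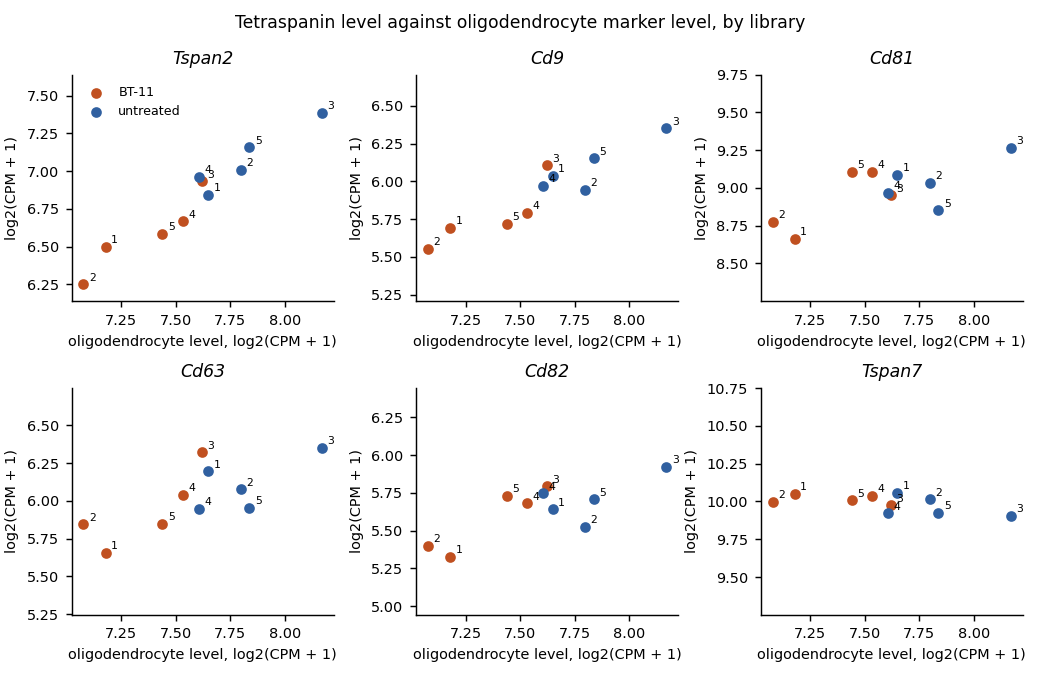
Level of 6 tetraspanins against the oligodendrocyte marker level, both as log2(CPM + 1), in 10 numbered libraries, with a vertical span of 1.5 log2 units in each panel. Tspan2 and Cd9 climb along the marker level, with untreated library 3 at the upper end and BT-11 library 2 at the lower, Cd81, Cd63 and Cd82 climb with more scatter, and Tspan7 is nearly flat.

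With the oligodendrocyte level in the model, the log2 fold change of BT-11 over untreated was -0.07 ± 0.0884 for Tspan2 and -0.00145 ± 0.0962 for Cd9 (SE; edgeR adjusted p = 0.951 and 0.999). Cd81, Cd82, Cd63 and Cd151 turned from negative to positive log2 fold changes in this fit, at 0.12 ± 0.114, 0.16 ± 0.104, 0.15 ± 0.126 and 0.14 ± 0.101, and none passed (adjusted p = 0.941 each). Tspan7 stood at 0.01 ± 0.0706, Tspan5 at -0.06 ± 0.113 and Tspan3 at 0.03 ± 0.0805. Group and marker level overlap in these 10 animals: the highest BT-11 library, at 7.62, barely reached the lowest untreated library, at 7.61. An effect of BT-11 and a difference in oligodendrocyte transcript content therefore cannot be told apart here.

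Cd81, Cd63 and Cd151 passed on the marker level of vessels and Cd81 on that of astrocytes, slopes that were chosen after the data were seen. On the endothelial level, the mean of 8 tested markers such as Cldn5 and Pecam1 (4.77 to 5.31 in BT-11 libraries and 4.91 to 5.46 in untreated libraries), Cd63 had a slope of 0.81 ± 0.200 (edgeR adjusted p = 0.0246), Cd151 0.69 ± 0.173 (0.0262) and Cd81 0.66 ± 0.165 (0.0262). These 3 of 9 stand beside 7.52% of all genes with a positive and 6.64% with a negative slope, so a call on this level is common. These shares too depended on single libraries: the 903 positive and 797 negative calls became 206 and 132 without untreated library 4, 276 and 287 without BT-11 library 1, 54 and 12 without untreated library 5, and 0 without both choroid-rich libraries. Tspan2, Cd9 and Cd82 had slopes of 0.46 ± 0.280, 0.39 ± 0.242 and 0.40 ± 0.234, which did not pass (adjusted p = 0.267, 0.281 and 0.257). At an unadjusted p under 0.05 in edgeR's test there were 3 of 9, Cd63, Cd151 and Cd81, and 32.3% of all genes. All 3 calls were lost without untreated library 3, 4 or 5, without BT-11 library 1, and without both choroid-rich libraries, at adjusted p-values of 0.0545 to 0.109, and that of Cd81 also without BT-11 library 4 (0.0613). The part of vessels and the part of other cells that vary with them were not tested.

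On the astrocyte level Cd81 had the steepest slope of the 9, 1.41 ± 0.261 (edgeR adjusted p = 0.0266), beside 3.99% of all genes with a positive and 2.42% with a negative slope that passed. The slopes of Cd63 (1.24 ± 0.474, adjusted p = 0.115) and Cd151 (1.2 ± 0.373, 0.0693) did not pass, though both, with Cd81, had an unadjusted p under 0.05, as did 28.6% of all genes. The call on Cd81 was lost without untreated library 4 (0.0735) or 5 (0.116), without BT-11 library 1 (0.0805) or 4 (0.082), and without both choroid-rich libraries (0.0798). In each of these 5 edgeR fits 0 of all genes passed, with 1342 to 1613 positive and 1083 to 1349 negative slopes at an unadjusted p under 0.05. On the microglial level 0 of 9 passed in edgeR's test, beside 0.225% of all genes with a positive and 0.0667% with a negative slope. The smallest adjusted p there was that of Cd63, 0.0577, and 3 of 9, Cd81, Cd63 and Cd151, had an unadjusted p under 0.05, as did 28.3% of all genes. On the choroid plexus level 0 of 9 passed (edgeR adjusted p = 0.99991 each, and 0 at an unadjusted p under 0.05, which 2.62% of all genes had), beside 0.275% of all genes with a positive slope and 0% with a negative one.

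**Figure D5:**
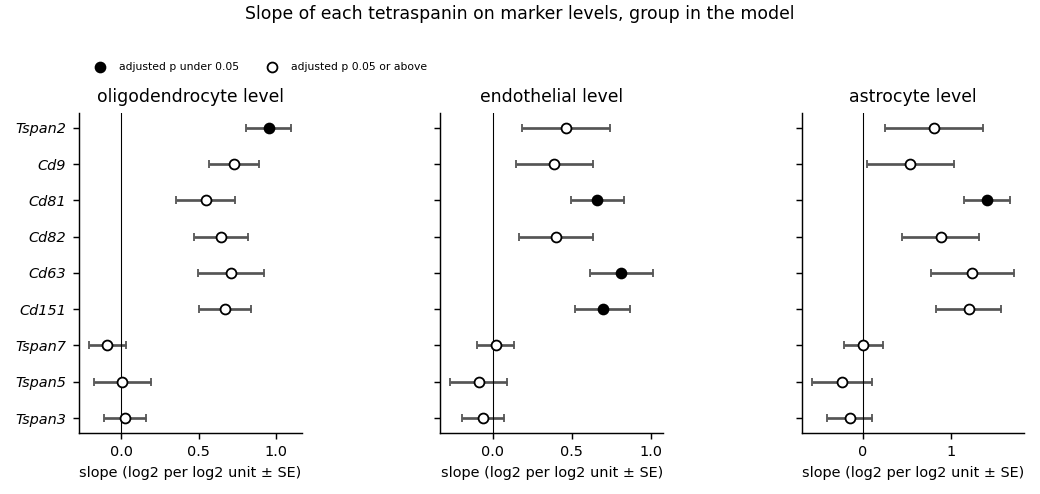
Slope (± SE) of each tetraspanin on the oligodendrocyte, endothelial and astrocyte marker levels with group in the model, with a different horizontal scale in each panel. Filled points have an adjusted p under 0.05: Tspan2 on the oligodendrocyte level, Cd81, Cd63 and Cd151 on the endothelial level, and Cd81 on the astrocyte level.

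Correlations of log2(CPM + 1) over the 10 libraries describe the same arrangement. They share library, depth and tissue makeup, and are given without a test. Tspan2 and Cd9 had a Pearson r of 0.962 (Spearman 0.891), and 0.931 with group means removed. Cd63 and Cd151 had an r of 0.935 and Cd81 and Cd151 of 0.837, while Tspan2 and Cd81 had 0.550. Tspan7 ran against Tspan2 (-0.652), Cd82 (-0.628) and Cd9 (-0.615).

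The genes most like each tetraspanin were sought among 8559 other genes with at least 10 CPM, over the same 10 libraries. Tspan2 was close to Erbb3, a neuregulin receptor (r = 0.973, Spearman 0.988, and 0.928 without the 2 farthest libraries). The nearest to Cd9 were Klk6, a protease of oligodendrocytes (r = 0.964), and Tspan2 itself. Cd81 was closest to the amino acid transporter Slc7a5 (0.986) and Ltbp3 (0.980), Cd63 to Rassf3 (0.983) and Eef1b2 (0.966), Cd151 to Hadh (0.980) and the lysosomal protease Tpp1 (0.977), and Cd82 to Slc12a9 (0.954) and Lgi3 (0.942). For Tspan7 the nearest were the transcription regulators Bcl11a (0.906) and Lmo4 (0.881), and for Tspan5 Fbn1 (0.917) and Larp6 (0.913). Without the 2 libraries farthest in Tspan7, Bcl11a stood at 0.851 and Lmo4 at 0.754, and the Spearman value of Lmo4 was 0.697. Tspan3 came closest to Dhps (0.942) and Uqcrfs1 (0.879), but these rested on the extreme libraries, since without the 2 farthest they were 0.758 and 0.639.

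Other members of the tetraspanin family showed no common direction. Of 23 listed, 17 were tested: 7 averaged lower and 10 higher with BT-11, where 50% of all genes averaged lower, and 0 passed. The median log2 fold change was 0.07 beside -0.000157 for all genes. At an unadjusted p under 0.05 in edgeR's test 1 gene was lower and 0 higher, beside 3.42% and 2.53% of all genes. That gene was Tspan1, a rare transcript at 0.633 ± 0.280 CPM with BT-11 and 1.2 ± 0.336 CPM untreated (SD, n = 5 each; log2 fold change -0.89 ± 0.324, edgeR unadjusted p = 0.0169). Cd53, a tetraspanin of leukocytes and microglia, averaged 11.0 ± 1.35 CPM with BT-11 and 9.37 ± 0.701 CPM untreated (log2 fold change 0.23 ± 0.107, edgeR unadjusted p = 0.0517). Tspan33, which like Tspan5 binds Adam10, had a log2 fold change of 0.12 ± 0.0829, and Tspan12, known from Norrin signalling in retinal vessels, 0.08 ± 0.0584.

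Of 20 listed partners of tetraspanins 19 were tested: 14 averaged lower and 5 higher with BT-11, where 50% of all genes averaged lower. Of these partners 0 passed, and their median log2 fold change was -0.07. At an unadjusted p under 0.05 in edgeR's test 1 gene was lower and 0 higher, beside 3.42% and 2.53% of all genes. That was Cd44, the hyaluronan receptor, at 10.3 ± 2.12 CPM with BT-11 and 14.3 ± 1.53 CPM untreated (SD, n = 5 each; log2 fold change -0.47 ± 0.138, edgeR unadjusted p = 0.00481). Ptgfrn, an immunoglobulin-like partner of Cd9 and Cd81, averaged 37.3 ± 4.42 CPM with BT-11 and 44.2 ± 8.18 CPM untreated (-0.24 ± 0.121, edgeR unadjusted p = 0.0664). The interferon-induced Ifitm3, a partner of Cd81, had a log2 fold change of -0.26 ± 0.164, and Itgb4, a laminin-binding integrin subunit joined to Cd151, -0.13 ± 0.103. Of the partners mentioned for single tetraspanins, which were picked for their roles after the values were seen, Adam10 had a log2 fold change of 0.04, Igsf8 -0.02 and Pick1 -0.03. Cldn11, the claudin-11 named with Tspan3, is also among the oligodendrocyte markers. Its log2 fold change was -0.45 (edgeR unadjusted p = 0.00942, adjusted p = 0.8). All 5 BT-11 libraries lay below every untreated library in Cldn11, as they did in 0.542% of all genes.

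Of 27 listed genes of exosome formation and release 25 were tested: 11 averaged lower and 14 higher with BT-11, where 50% of all genes averaged lower. Of these genes 0 passed, and their median log2 fold change was 0.01. At an unadjusted p under 0.05 in edgeR's test 1 gene was higher and 0 lower, beside 2.53% and 3.42% of all genes. That was Smpd3, the neutral sphingomyelinase that forms ceramide for vesicle budding, at 143 ± 13.5 CPM with BT-11 and 126 ± 11.4 CPM untreated (SD, n = 5 each; log2 fold change 0.18 ± 0.0799, edgeR unadjusted p = 0.0428). Rab11a, a GTPase of recycling endosomes, had 0.16 ± 0.0888, Sdcbp, the syntenin that links syndecans to the exosome machinery, 0.14 ± 0.0788, and Vamp3, a vesicle fusion protein, -0.11 ± 0.0721. The endosomal sorting genes Tsg101, Hgs and Pdcd6ip, also picked for their roles, had log2 fold changes of 0.01, -0.04 and 0.04.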

How the data were processed

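The submitters' processing notes name genome build rn6, DESeq2, Partek, STAR 2.7.9a and bcl2fastq 2.19.1.403. What each did, how reads were counted, whether strand was used and which annotation served is not given in the sources used here. Reads of a gene and an antisense partner may therefore be mixed. The authors deposited estimated counts (expected counts) for 14806 transcript rows. Of the single count values, over all rows and libraries, 85.4% were whole within 1e-06. They also deposited a table of normalized signal, whose library totals were 0.822 to 1.15 times those of the deposited counts. Scaling by 1 factor per library would leave tissue makeup in place. Whether starts count from 0 or 1 was not settled.

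Rows were summed by symbol (785 symbols had several) and rounded. filterByExpr kept 12000 genes and removed 1670. The test was edgeR 4.0.16's quasi-likelihood test with TMM scaling, two-sided, adjusted by Benjamini-Hochberg over all genes tested, at a threshold of 0.05. The design had assumed whole counts per gene. The same test gave slopes on marker levels with group in the model. The common coefficient of variation was 13%. CPM carry TMM scaling, and logs a pseudocount of 1. Alternatives used limma 3.58.1 (voom) and DESeq2 1.42.0 in R 4.3.3. Figures used matplotlib 3.10.9 in Python 3.11.15. The fits were also run on simulated data with planted effects. There the marker level was supplied and was not computed from the simulated counts. How many planted effects were recovered is not reported here.

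All 9 members are named, with up to 4 genes of smallest p in each list of other tetraspanins, partners and exosome genes, and the 2 genes most like each member. One gene that this rule selects is not reported here. The members and lists were chosen with earlier results of these data known.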

Additional observations from a re-analysis of the deposited data

Results flagged for a closer look

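Each value below stood farther from the rest of its group of 5 than Dixon's 95% critical value of 0.71 allows, as the gap to the nearest library divided by the range of the group. This flagged 7 of the 62 groups examined, and chance flags about 1 in 20 groups. Tspan5 stood at 223.3 CPM in BT-11 library 1, above 178.8 to 190.7 CPM in the rest of its group. Tspan3 stood at 306.2 CPM in BT-11 library 3, above 271.8 to 281.0 CPM in the others. Itgb4 stood at 8.38 CPM in untreated library 1, below 9.81 to 10.3 CPM in the others. Vamp3 stood at 50.98 CPM in untreated library 3, above 43.5 to 45.0 CPM in the others. The mural cell level, as mean log2(CPM + 1), was 3.48 in BT-11 library 1, below 3.97 to 4.12 in the others. The choroid plexus level was 5.25 in BT-11 library 3, above 0.672 to 1.74 in the others of its group, and 5.51 in untreated library 4, above 1.67 to 2.48.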

How the results depend on the processing

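Of the alternatives tried, the fold changes of Tspan2, Cd9, Cd81, Cd82, Cd63, Cd151, Tspan7 and Tspan5 kept their direction under other scalings, filters and tools and with each library left out. With each library left out the log2 fold change was -0.57 to -0.40 for Tspan2, -0.41 to -0.25 for Cd9, -0.26 to -0.09 for Cd63, -0.22 to -0.10 for Cd151, -0.17 to -0.06 for both Cd81 and Cd82, -0.13 to -0.03 for Tspan5, 0.03 to 0.07 for Tspan7 and -0.00868 to 0.0354 for Tspan3, which turned negative without BT-11 library 3. DESeq2 gave Tspan2 an adjusted p of 0.0991 and called 8 genes of all tested, against 0 in edgeR. The 715 genes at an unadjusted p under 0.05 became 373 to 1129 with each library left out and 1435 without both choroid-rich libraries.

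The oligodendrocyte slope was the less stable result. Its 95 calls became 191 with library size as the scaling (which also moved the median slope of all genes to 0.138, against 0.03), 55 without a filter, 641 with DESeq2, 63 on the deposited normalized values, 57 without ribosomal RNA rows, 0 without both choroid-rich libraries and 0 to 1511 with each library left out. Library size moved the median slope on the endothelial and astrocyte levels to 0.127 and 0.228. Cd9 and Cd151 passed with library size (adjusted p = 0.0223 and 0.0404) and, with Cd82 and Cd63, in DESeq2 (0.0102 for Cd9, 0.0275 for Cd151, 0.0409 for Cd82 and 0.0494 for Cd63). Cd81 on the astrocyte level missed the threshold (0.0703) with the row of most counts in place of the sum. Slopes that turned sign lay near 0. That of Tspan7 was 0.0240 with library size. That of Tspan5 was -0.0160 with DESeq2's size factors, -0.0172 with DESeq2, -0.0216 without a filter, -0.0194 on the deposited values, -0.0231 without ribosomal RNA rows, -0.0214 without the choroid-rich libraries and -0.22 to 0.15 with each library left out. That of Tspan3 was -0.00037 with DESeq2's size factors, -0.00498 on the deposited values, -0.00438 without ribosomal RNA rows, -0.0421 without the choroid-rich libraries and -0.0815 to 0.11 with each library left out. With the oligodendrocyte level as a covariate the log2 fold change turned sign for Cd81 (0.12), Cd82 (0.16), Cd63 (0.15), Cd151 (0.14), Ifitm3 (0.10), Rab11a (-0.0686), Sdcbp (-0.0401) and Vamp3 (0.0609). The causes of these shifts were not tested.

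Replicate numbers are shared by the groups, but over all genes tested same-numbered libraries did not deviate together (correlations -0.353 to 0.121). Of the 5 BT-11 libraries, 0 were closest to the untreated library of their own number. Whether same-numbered animals shared handling was not tested. A replicate block gave 0 calls between groups, 571 genes at an unadjusted p under 0.05 and 0 slopes on the oligodendrocyte level called. With the block the log2 fold change was -0.49 ± 0.0810 for Tspan2, -0.32 ± 0.0655 for Cd9 and -0.12 ± 0.0695 for Cd82 (SE). The SE was smaller than without the block for these, Cd63 and Cd151, and larger for Cd81, Tspan7, Tspan5 and Tspan3. With the block in edgeR's test Tspan2 had a slope of 0.60 (adjusted p = 0.612), Cd9 0.26 (0.781) and Cd82 0.15 (0.88). Cd81 stood at 0.79, Cd63 at 0.50, Cd151 at 0.67, Tspan5 at 0.24, Tspan7 at 0.20 and Tspan3 at -0.23. The endothelial slopes of Cd81, Cd63 and Cd151 had adjusted p-values of 0.0762, 0.175 and 0.131. That of Cd81 on the astrocyte level still passed (1.48, adjusted p = 0.049). The levels limit precision for rare genes such as Tspan1. Standard errors rest on 5 animals a group. Fits without ribosomal RNA rows, without choroid-rich libraries and on the endothelial, astrocyte, microglial and choroid plexus levels were chosen after seeing the data.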
